A study of Mus musculus with 6 samples.

Results

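The genes described here encode the aminoacyl-tRNA synthetases of the mouse, measured as RNA in cultured cortical neurons kept at 37 °C or heated at 42 °C. They were chosen by name, as symbols made of an amino acid letter and "ars" with or without a digit, plus Farsa, Farsb, Fars2, Eprs and Tarsl2. The rule found 38 of the 55538 genes in the table, and all 38 were among the 21954 genes tested, those whose signal averaged 1 or more. By name, 21 were taken as cytosolic and 17, with the suffix 2, as mitochondrial. Symbols are the older ones, so that Aars is the gene now called Aars1. Gars and Kars make both the cytosolic and the mitochondrial form of their enzyme and were counted as cytosolic. Ears2 and Pars2 were counted as mitochondrial, with the fused cytosolic enzyme Eprs as the partner of both.

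An aminoacyl-tRNA synthetase joins an amino acid to its tRNA, the step that prepares every residue for the ribosome. The cytosol and the mitochondrion hold separate sets, nearly all encoded in the nucleus by different genes, and the mitochondrial set serves only the few proteins made from the mitochondrial genome. Several cytosolic synthetases sit together in a multi-synthetase complex, and many cytosolic synthetase genes are known targets of the transcription factor ATF4, which the integrated stress response raises. Uncharged tRNA is a signal that activates the kinase GCN2 and through it ATF4.

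The cells were primary neurons, taken from cortices of e14.5 embryos of genotype C57BL/6, kept in medium with serum and rested for 2 h. Libraries were made from total RNA with a kit that depletes ribosomal RNA. The 3 groups of 2 libraries were a control held for 60 min at 37 °C, a 15 min group and a 60 min group, both heated to 42 °C. A 37 °C control matched to the 15 min group is not described, so time in culture and heat cannot be told apart there. The labels do not say whether the 2 libraries of a group came from separate cultures, so p-values measure the spread between these libraries, which may be technical. The authors deposited a normalised signal for each gene, on a scale per transcript length, so sequencing depth is unknown. Libraries are called s1 and s2 within a group, by the column names.

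The cultures held transcripts of neurons and of progenitors. Summed over 10 neuronal markers such as Tubb3 and Dcx, the signal ran from 1449 to 2093 over the 6 libraries, and over 8 markers of progenitors and radial glia from 2344 to 3347. The sums were 10.9 to 20.3 for 7 microglial, 11.8 to 23.3 for 6 endothelial and mural, 9.997 to 17.3 for 6 oligodendrocyte lineage, 2.73 to 13.8 for 4 astrocyte, 6.93 to 12.7 for 5 fibroblast and meningeal and 113 to 206 for 5 erythroid genes, and none of the markers was at 0 in every library. Within the progenitor list, Sox2 was at 142 and 128 in the controls, 136 and 86.6 at 15 min and 77.7 and 62.8 at 60 min, and Eomes at 89.9 and 102, 98.6 and 90.5, and 45.8 and 40.6. Both were lowest in the 60 min libraries, whereas Vim, which made up most of the sum, was at 1413 and 1786, 2200.0 and 2017, and 2180.0 and 1945. Both controls stood apart from the other libraries in some measure. Mitochondrial ribosomal RNA took 12.9% of the signal in control s2, 3.87% in control s1 and 4.92% to 9.39% in the heated libraries. Control s1 detected 29309 genes at a signal of 1 or more, while the rest detected between 19035 and 21796. Its abundant genes were low: among genes averaging 20 or more, the typical gene of control s1 stood at 0.893 of its geometric mean, and at 0.961 to 1.08 in the rest. In bulk RNA, fewer cells of a type and less RNA per cell cannot be told apart.

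Cytosolic synthetase transcripts were far more abundant than mitochondrial ones in every library. The cytosolic genes summed to 3608 and 3346 in the controls, 4225 and 3930 at 15 min and 4599 and 3715 at 60 min. The mitochondrial genes summed to 225 and 251, 406 and 272, and 325 and 206. The mitochondrial sum was thus 6.24% and 7.49% of the cytosolic sum in the controls, 9.62% and 6.93% at 15 min and 7.07% and 5.55% at 60 min. A single gene, Lars2, gave 159 of the mitochondrial sum in 15 min s1 and 126 of that in 60 min s1. Without it the percentages were 5.73 and 6.96 in the controls, 5.86 and 5.63 at 15 min and 4.33 and 4.67 at 60 min, so that both 60 min libraries lay below the other 4.

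Within the cytosolic set, levels differed between genes much more than between libraries. Iars, the isoleucine enzyme, was the highest on average, with 468 and 379.9 for the controls, then 415 and 450.2 at 15 min and 576 and 448 at 60 min. Sars, the serine enzyme, came next with 424 and 275, 597 and 449, and 539 and 346, and Nars, the asparagine enzyme, with 409 and 395, 430.1 and 431, and 536 and 426. These 3 overlapped one another across the libraries, so their order is not resolved. The lowest were Dars, the aspartate enzyme, at 26.6 to 40.2 over the libraries, and Tarsl2, a paralogue of the threonine enzyme Tars, at 9.08 to 11.6. Tarsl2 did not overlap any other cytosolic member, and Tars itself ran from 167 to 268.

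**Figure D1:**
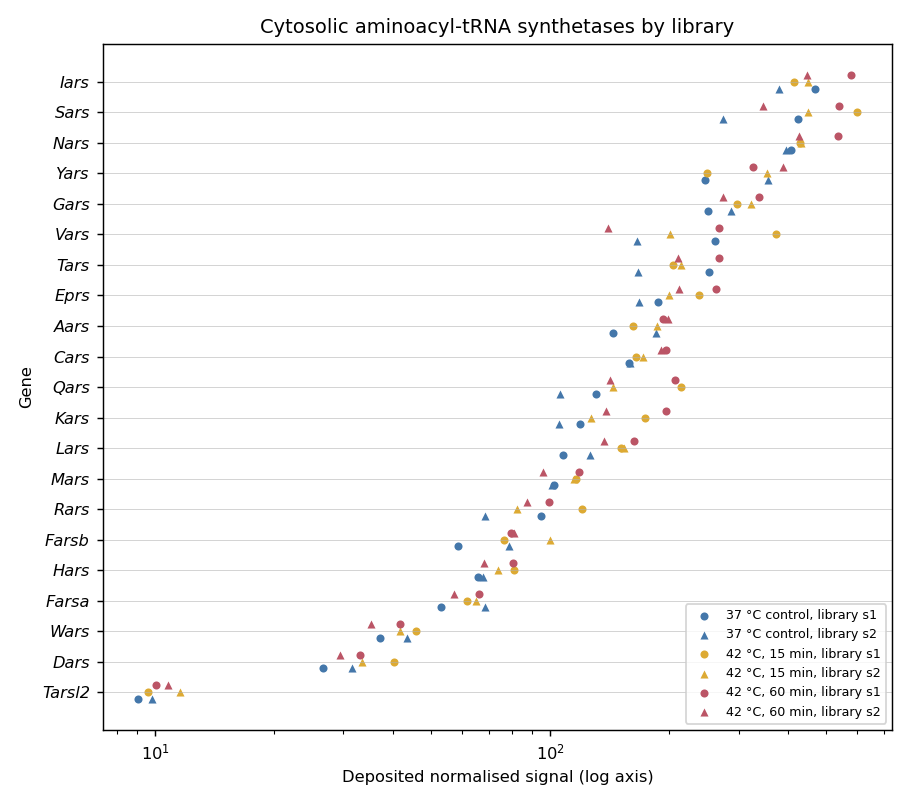
Deposited normalised signal (log axis) of the 21 cytosolic synthetase genes, ordered by their mean over the 6 libraries. Each point is 1 library, with colour for the group and circle or triangle for libraries s1 and s2. The spread between genes, from 9.08 for Tarsl2 to 597 for Sars, is far larger than the spread between groups, and circles lie to the right of triangles for Sars, Vars, Qars and Kars.

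Promoter sequences show which synthetase genes carry the element that C/EBP and ATF factors bind, and are printed for that reason. RefSeq windows on GRCm38.p6, from 250 bases before to 50 after the start of the gene, were at hand for 27 members, 13 cytosolic and 14 mitochondrial. The element was searched on both strands as TGATGNAAN, where N is any base. It was found in 5 of the 13 cytosolic and 0 of the 14 mitochondrial members, and in 3.95% of all 32851 windows of 300 bases. The heat shock element, searched as 3 alternating units of GAA and TTC with 2 free bases between units, beginning with either unit, was in 0 of the 27 and in 0.603% of all windows. A match for each gene is given on the strand that holds the element, with the element in capitals and 10 bases on each side.
Aars: cagagcgctcTGATGAAAAgtgacccgct
Gars: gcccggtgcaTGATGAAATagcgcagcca
Iars: cgtctggaggTGATGCAATactgacagtg
Tars: gctaaccagcTGATGCAACgggactcctg
Yars: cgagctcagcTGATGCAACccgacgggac

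The printed stretches lie at chr8:111033840-111033868 for Aars, chr6:55037960-55037988 for Gars, chr13:49682126-49682154 for Iars, chr15:11399656-11399684 for Tars and chr4:129189896-129189924 for Yars. Tars lies on the minus strand of the chromosome and the other 4 on the plus strand. The element ran along the gene in Yars and against it in Aars, Gars, Iars and Tars. Counted from the first base of the gene as 0, it began at 8 in Aars, -31 in Gars, 6 in Iars, -16 in Tars and 3 in Yars. A match is a description of the letters and not evidence of binding.

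After 15 min at 42 °C every cytosolic synthetase had a higher fitted level than in control, by small amounts, and none passed the test. The fitted log2 change, taken on log2(signal + 1), ran from 0.003 for Yars to 0.60 for Sars with a median of 0.21, and all 21 were above 0, against 40.1% of all genes tested. Abundant genes in general were higher too: of the tested genes with a mean of at least 20, 71.6% were above 0, with a median of 0.15, while the median of all genes was -0.10. The groups did not overlap, with both heated libraries above both controls, in 11 of the 21, against 15.1% of all genes tested and 31.7% of those with a mean of at least 20. Limma called 0 of the 38 synthetases and 0 of all genes (0%) at a Benjamini-Hochberg adjusted p under 0.05. An unadjusted p under 0.05 was found for 1 synthetase, Lars2, which was higher, and for 3.95% of all genes (2.09% higher and 1.86% lower). Without control s1 limma called 41 of all genes and without control s2 216, with 0 synthetases among them. The count of 21 was 18 without control s1, 19 without control s2, 20 without 15 min s1 and 17 without 15 min s2.

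The cytosolic genes with the smallest p at 15 min were Lars, Qars and Sars. Lars, the leucine enzyme and an intracellular leucine sensor, was at 108 and 126 in the controls; the 15 min libraries were at 152 and 154. Its log2 change was 0.39 ± 0.19 (SE), with a limma adjusted p of 0.747. Qars, the glutamine enzyme, was at 130.4 and 106 in the controls and at 215 and 145 at 15 min, a log2 change of 0.58 ± 0.29 (limma adjusted p = 0.747). At 60 min Lars was at 164 and 137 and Qars at 207 and 142, in both genes above the controls. For Sars the log2 change was 0.60 ± 0.33 (SE, limma adjusted p = 0.747). In all 3 genes the 15 min libraries lay above the controls. At 60 min the values of Sars, given above, overlapped the controls. In Qars and Sars the 15 min libraries lay farther from each other than the lower of them lay from the nearer control.

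After 60 min the cytosolic set was again mostly above control. Of the 21, 19 had a fitted change above 0, against 37.3% of all genes tested and 57.8% of those with a mean of at least 20, and the median log2 change was 0.24, against -0.12 and 0.06. Only Wars, the tryptophan enzyme, and Vars, the valine enzyme, were below 0, at -0.07 and -0.10. The groups did not overlap in 10 of the 21, all higher, against 12.8% of all genes tested and 22.9% of those with a mean of at least 20. Limma called 0 of the 38 synthetases at an adjusted p under 0.05, against 0.041% of all genes, and 1 higher and 2 lower synthetases had an unadjusted p under 0.05, against 2.92% and 5.41% of all genes, or 8.34% in all. Those 3 were mitochondrial. Over all genes limma called 48 without control s1, 146 without control s2, 2 without either 15 min library and 0 without either 60 min library, with 0 synthetases in each. The cytosolic median was 0.085 without 60 min s1, the library with the larger cytosolic sum, and was 0.22 without control s1, where the median of all genes went from -0.12 to 0.037 and the gap between them from 0.364 to 0.186.

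Kars, which makes the lysine enzyme of both compartments, and Eprs, the fused glutamate and proline enzyme, had the smallest p of the cytosolic set at 60 min. Kars was at 119 and 105 in the controls, 174 and 127 at 15 min and 197 and 139 at 60 min, a log2 change from control to 60 min of 0.56 ± 0.26 (SE, limma adjusted p = 0.65). Eprs was at 187 and 168, 238 and 199.6, and 262 and 212, a change of 0.41 ± 0.21 (limma adjusted p = 0.689). Both 60 min libraries lay above both controls in Kars and in Eprs. Gars, the glycine enzyme of both compartments, was at 251 and 287 in the controls, 298 and 322 at 15 min and 338 and 273 at 60 min, so its control and 60 min values overlapped. Cars, the cysteine enzyme, had close replicates in each group, with 159 and 159.8, 165 and 172, and 197 and 191, a log2 change of 0.28 ± 0.17 at 60 min (limma adjusted p = 0.748).

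Among the other cytosolic members the groups overlapped in some genes and not in others. Dars was at 26.6 and 31.5 in the controls, 40.2 and 33.3 at 15 min and 33.04 and 29.4 at 60 min, highest in both 15 min libraries. Tarsl2 was at 9.08 and 9.84, 9.62 and 11.6, and 10.04 and 10.8, with both 60 min libraries just above the controls. Yars, the tyrosine enzyme, was at 247 and 357, 249.8 and 355, and 327 and 388, so libraries s2 were the higher in each group. Farsa and Farsb, the subunits of the phenylalanine enzyme, ran from 52.95 to 68.4 and from 58.4 to 100.1 over the libraries. Mars and Rars, the methionine and arginine enzymes, ran from 96.03 to 118 and from 68.4 to 120.2, Hars, the histidine enzyme, from 65.9 to 81.03, and Wars from 35.3 to 45.8. Hars lay above both controls in every heated library, Mars in both 15 min libraries and Farsb in both 60 min libraries.

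The 8 enzymes of the multi-synthetase complex, Dars, Eprs, Iars, Kars, Lars, Mars, Qars and Rars, were above control at both times. All 8 had a fitted change above 0 at 15 min (median 0.32) and at 60 min (median 0.31), and 6 and 4 of them had groups that did not overlap. Among tested genes averaging 20 or more, 71.6% and 57.8% were above 0, and 31.7% and 22.9% were higher without overlap, against 40.1% and 37.3%, and 15.1% and 12.8%, of all genes. The 13 cytosolic members outside the complex had medians of 0.12 and 0.21. Of these 13, 13 and 11 were above 0, and 5 and 6 were higher without overlap. The sum over the complex was 1236 and 1086 in the controls, 1471 and 1306 at 15 min and 1657 and 1289 at 60 min, higher in all 4 heated libraries. The sum over the 13 outside it was 2371 and 2260, 2754 and 2623, and 2942 and 2426, also higher in all 4, so this was not particular to the complex. Of the complex's scaffold genes, Aimp1 and Eef1e1 were higher in every heated library than in both controls, and Aimp2 was not. Aimp1 was at 137 and 136, 192 and 158, and 181 and 143, Aimp2 at 26.2 and 26.3, 31.7 and 28.8, and 37.3 and 26.1, and Eef1e1, also called AIMP3, at 33.3 and 36.4, 46.3 and 53.0, and 45.4 and 38.8. Eef1e1 had a log2 change of 0.50 ± 0.19 at 15 min (SE, limma adjusted p = 0.747).

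The 12 cytosolic synthetases reported as ATF4 and CHOP targets and the other 9 had medians of unlike course, a difference that was not tested. The 12 were Aars, Cars, Eprs, Gars, Iars, Lars, Mars, Nars, Sars, Tars, Wars and Yars. Their median log2 change was 0.11 at 15 min and 0.26 at 60 min, and those of the other 9 were 0.33 and 0.15. Tested genes with a mean of at least 20 had medians of 0.15 and 0.06. From 15 to 60 min 7 of the 12 and 1 of the other 9 were higher. The shares were 50.8% of all genes tested and 34.1% of those with a mean of at least 20. The 5 genes with the element printed above are all among the 12, so they are not a separate observation. Their median was 0.03 at 15 min and 0.26 at 60 min, and the 8 other cytosolic genes with a promoter window had 0.35 and 0.29. In Aars, the alanine enzyme, the signal was 144 and 186 in the controls, 162 and 187 at 15 min and 193 and 199 at 60 min, and both 60 min libraries lay above the other 4. None of these changes passed limma's test, where the adjusted p ran from 0.689 to 1 over the 12 and both times. Mars overlaps Ddit3, which encodes CHOP, on the opposite strand over 68 bases, and whether the quantification used strand is not known here. Ddit3 was at 98.8 and 125 in the controls, 81.2 and 109 at 15 min and 71.3 and 64.1 at 60 min, lowest in both 60 min libraries.

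Mitochondrial synthetases had no common direction against control at 15 min and were mostly lower at 60 min. At 15 min 9 of 17 were above control and 8 below, with a median log2 change of 0.02, and the groups did not overlap in 4 higher and 4 lower genes, against 15.1% and 18.9% of all genes tested; 59.4% of all genes were below 0. Genes with a mean under 20, as most mitochondrial members have, were lower in general, with 26.1% above 0 and a median of -0.25, so the mitochondrial median lay above theirs. When libraries were instead scaled by median of ratios, using genes above 0 in every library, the typical gene moved from -0.10 to 0.17 and 15 of 17 were above control. At 60 min 13 of 17 were below control, with a median of -0.155, against 62.4% below 0 and a median of -0.12 over all genes tested, and 71.3% and -0.195 over those with a mean under 20. This count and median are near the background, and under that other scaling 9 of 17 were above control and 8 below. Without control s1 they were not near it: the mitochondrial median was -0.303 and that of all genes 0.037. The mitochondrial median was -0.234 without 60 min s1 and -0.069 without 60 min s2. The groups did not overlap in 8 lower genes and 1 higher gene, against 19.8% and 12.8% of all genes and 22.4% and 8.29% of those with a mean under 20. Of the progenitor markers, Sox2 and Eomes, given above, were also lower at 60 min. Vim, Fabp7 and Slc1a3 of the same list were higher in both 60 min libraries than in both controls. Pax6, Nes and Hes5 overlapped the controls. Whether cell make-up had a part in these values was not tested.

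Between 15 and 60 min at 42 °C, 15 of the 17 mitochondrial members were lower, with a median log2 change of -0.30. These fitted changes use no control library, but their SE and p-values do, since all 6 libraries set the spread in the fit. Of all genes tested 49.2% were below 0, with a median of 0.001, and of those with a mean under 20, 41.8% were below 0, with a median of 0.08. In 10 of the 17 both 60 min libraries lay below both 15 min libraries, against 22.6% of all genes, and in 0 the reverse, against 25.9%. Among them were Cars2, Ears2, Iars2, Mars2, Pars2, Sars2, Vars2, Wars2 and Yars2. Of the 9 mitochondrial enzymes of class I, one of the structural families of synthetases, 9 were lower with a median of -0.43, and of the 8 of class II 6 were lower with a median of -0.21. The cytosolic members had no such direction, with 13 of 21 lower, 8 higher against 50.8% of all genes, and a median of -0.03. Of tested genes with a mean of at least 20, 65.9% were lower and 34.1% higher, with a median of -0.09. Limma called 0 of the 38 synthetases, against 0.0182% of all genes, with Cars2 alone, lower, at an unadjusted p under 0.05, against 6.19% of all genes, of which 4.08% lower and 2.11% higher. Leaving out any 1 library left 0 to 2 genes called in all. The count of 15 was 15 or 16 when any 1 library was left out, and the median ran from -0.39 to -0.21.

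**Figure D2:**
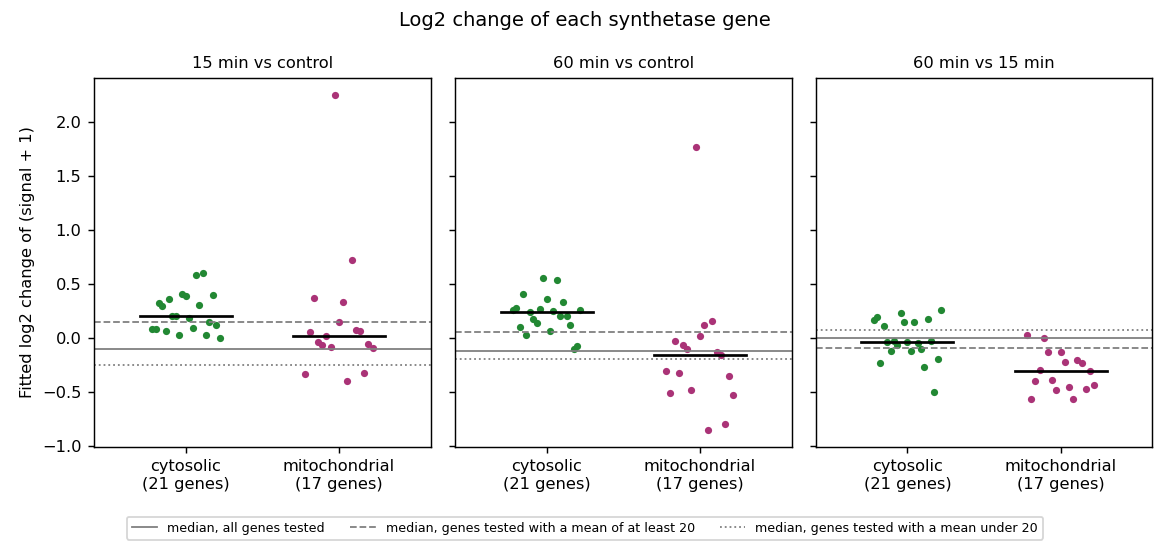
Fitted log2 change of (signal + 1) for each synthetase gene in the 3 comparisons, with 21 cytosolic genes in green and 17 mitochondrial genes in purple. Each point is a gene, black bars are medians of the set, and grey lines are medians of all genes tested (solid), of those with a mean of at least 20 (dashed) and of those with a mean under 20 (dotted). Cytosolic genes lie above all 3 lines at both times against control by their medians, and mitochondrial genes lie below them in 60 min vs 15 min, with a median of -0.30.

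Vars2, the mitochondrial valine enzyme, had the smallest p of all 38 genes in any comparison. It was at 17.2 and 18.3 in the controls, 15.6 and 12.6 at 15 min and 9.23 and 10.5 at 60 min, so the 3 groups did not overlap and each was lower than the one before. Its log2 change at 60 min was -0.79 ± 0.21 (SE, limma adjusted p = 0.427). Vars2 overlaps the antisense gene Gm20483, which was at 0.394 to 2.46 over the libraries, and its part in the values was not tested. Such overlaps are common here: 21 of the 38 members overlap another annotated gene, and 18 overlap one on the opposite strand. Pars2, the mitochondrial proline enzyme and the lowest member, was at 3.82 and 4.502 in the controls, 2.54 and 3.32 at 15 min and 2.43 and 1.39 at 60 min, a log2 change of -0.85 ± 0.30 at 60 min (limma adjusted p = 0.541). At such low values the added 1 makes the change smaller than that of the signal itself.

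Iars2 had the same order of groups as Vars2, and Cars2 and Aars2 did not. Cars2, the mitochondrial cysteine enzyme, was at 14.7 and 12.7 in the controls, 12.1 and 16.7 at 15 min and 9.49 and 9.202 at 60 min, so both 60 min libraries were the lowest. From 15 to 60 min its log2 change was -0.56 ± 0.23 (SE, limma adjusted p = 0.796). Iars2, the isoleucine enzyme, was at 17.6 and 18.4, 17.4 and 16.5, and 14.4 and 11.2, so its 3 groups did not overlap and each was lower than the one before. Its log2 change from 15 to 60 min was -0.39 ± 0.21 (limma adjusted p = 0.895). Cars2 overlaps the protein-coding gene Naxd over 984 bases, and Iars2 overlaps Rab3gap2 over 2034 bases, both on the opposite strand. Naxd was at 43.2 to 77.5 and Rab3gap2 at 27.1 to 35.8 over the libraries, and their part in the values was not tested. Aars2, the alanine enzyme, was at 10.3 in both controls, 8.10 and 7.88 at 15 min and 7.74 and 8.57 at 60 min. Its lower level was thus already there at 15 min and did not go on, with a log2 change of -0.33 ± 0.20 (SE) at 15 min and -0.30 ± 0.20 at 60 min (limma adjusted p of 0.747 and 0.762).

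**Figure D3:**
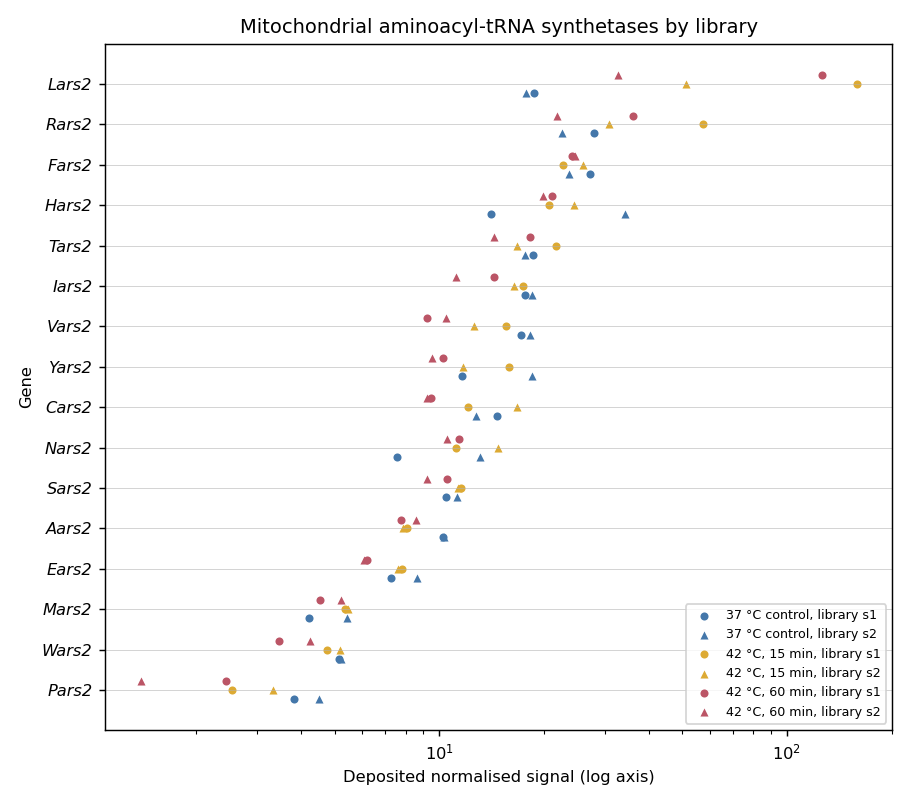
Deposited normalised signal (log axis) of 16 mitochondrial synthetase genes, ordered by their mean over the 6 libraries. Each point is 1 library, with colour for the group and circle or triangle for libraries s1 and s2. Both 60 min libraries lie left of the other 4 for Vars2, Cars2, Iars2, Yars2, Ears2, Wars2 and Pars2, and Lars2 spreads from 17.8 to 159.

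Lars2, the mitochondrial leucine enzyme, was the exception among the mitochondrial genes and had the largest differences of all 38. It was at 18.7 and 17.8 in the controls, 159 and 51.2 at 15 min and 126 and 32.7 at 60 min, so all 4 heated libraries lay above both controls, and the 2 heated libraries of each group lay far apart. The log2 change was 2.25 ± 0.72 (SE) at 15 min (limma adjusted p = 0.747) and 1.77 ± 0.72 at 60 min (limma adjusted p = 0.593). Without library s1 of the heated group it was 1.44 at 15 min and 0.81 at 60 min, and without s2 it was 3.05 and 2.73.

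Part of the Lars2 transcript resembles other transcripts, which bears on how its reads were assigned. In the GENCODE annotation of GRCm38, Lars2-201 is 3894 bases long and its coding part ends at base 2905. After that end, bases 3278 to 3349 matched the antisense gene Gm15564 at 98.6% over 72 bases, and bases 3233 to 3329 and 3163 to 3212 matched AA474408, a locus annotated as TEC, at 94.8% over 97 bases and 96.0% over 50 bases. AA474408 was at 6.23 and 4.52 in the controls, 13.03 and 11.7 at 15 min and 15.4 and 7.98 at 60 min, so it too was higher in all 4 heated libraries, without the gap between s1 and s2 that Lars2 had at 15 min. Gm15564 was at 5.88 and 0.827, 2.35 and 1.66, and 4.33 and 2.11, with overlapping groups. The part of this shared sequence in the Lars2 values was not tested.

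The other mitochondrial members stayed at low levels. Fars2, the phenylalanine enzyme, was at 27.2 and 23.6 in the controls, 22.8 and 25.9 at 15 min and 24.1 and 24.5 at 60 min, with overlapping groups. Hars2, the histidine enzyme, was at 14.1 and 34.2, 20.7 and 24.3, and 21.1 and 19.9, so that the controls spanned the heated libraries. Yars2, the tyrosine enzyme, was at 11.6 and 18.4, 15.9 and 11.7, and 10.2 and 9.51, and both 60 min libraries were lowest. Wars2, the tryptophan enzyme and the second lowest member, was at 5.15 and 5.23, 4.76 and 5.18, and 3.47 and 4.26, again lowest at 60 min. Ears2, the glutamate enzyme, was at 7.27 and 8.61, 7.81 and 7.602, and 6.19 and 6.07, with the same order. Tars2, Nars2, Sars2 and Mars2, the threonine, asparagine, serine and methionine enzymes, ran from 14.3 to 21.7, 7.54 to 14.7, 9.23 to 11.6 and 4.21 to 5.47 over the libraries, and their control and 60 min values overlapped.

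The gap between libraries s1 and s2 was not limited to Lars2. On the log2(signal + 1) scale s1 exceeded s2 by 1.61 at 15 min and 1.92 at 60 min in Lars2, by 0.88 and 0.92 in Vars, by 0.87 and 0.70 in Rars2 and by 0.57 and 0.55 in Qars. Vars was at 261 and 166 in the controls, 373 and 202 at 15 min and 267 and 140.3 at 60 min, so each group spanned a wide range and the groups overlapped. Rars2, the mitochondrial arginine enzyme, was at 27.9 and 22.5, 57.2 and 30.8, and 36.0 and 21.9. At 15 min both Rars2 values lay above the controls, with a log2 change of 0.72 ± 0.36 (SE, limma adjusted p = 0.747), which was 0.29 without 15 min s1. Across the members s1 was the higher library for 16 of 38 genes in control, 20 at 15 min and 29 at 60 min. The median of s1 minus s2 was -0.03, 0.02 and 0.22 over the members, against 0.14, -0.01 and 0.01 over all genes tested.

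The ratio of each mitochondrial enzyme to its cytosolic partner within a library does not depend on how the libraries were scaled. Over the 17 pairs the cytosolic gene exceeded the mitochondrial one on average by 2.07-fold, for Lars and Lars2, to 70.4-fold, for Eprs and Pars2. The median log2 ratio of mitochondrial to cytosolic signal was -3.81 and -3.65 in the controls, -3.97 and -4.01 at 15 min and -4.64 and -4.20 at 60 min. The ratio was lower than in control for 12 of 17 pairs at 15 min and 16 of 17 at 60 min, the exception being Lars2 to Lars, and lower at 60 than at 15 min for 15 of 17. The median change of the ratio was -0.12 at 15 min, -0.37 at 60 min and -0.38 between the times. The pairs set a gene of low signal against an abundant one, and such genes differed in general: the median log2 change of tested genes with a mean under 20 was -0.25 at 15 min, -0.195 at 60 min and 0.08 between the times, and that of genes with a mean of at least 20 was 0.15, 0.06 and -0.09. The pairs of Ears2 and Pars2 share Eprs. These comparisons share libraries, and no test was run over the pairs.

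In single pairs the largest decreases from control to 60 min were those of Pars2 to Eprs, at -1.59 on the log2 scale, Cars2 to Cars and Yars2 to Yars, both at -0.83, Ears2 to Eprs at -0.78 and Iars2 to Iars at -0.78. In these 5 pairs, and in Aars2 to Aars and Tars2 to Tars, both 60 min ratios lay below both control ratios. In Lars2 to Lars both lay above. No other pairs of a low and an abundant gene were counted, so the background share is not known. Without control s1 the 60 min ratio was lower in 14 of 17 pairs (median -0.635), without control s2 in 12 (median -0.375), without 60 min s1 in 14 (median -0.265) and without 60 min s2 in 15 (median -0.63). Between 15 and 60 min the count was 11 without 60 min s1 and 13 to 16 without any other heated library.

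**Figure D4:**
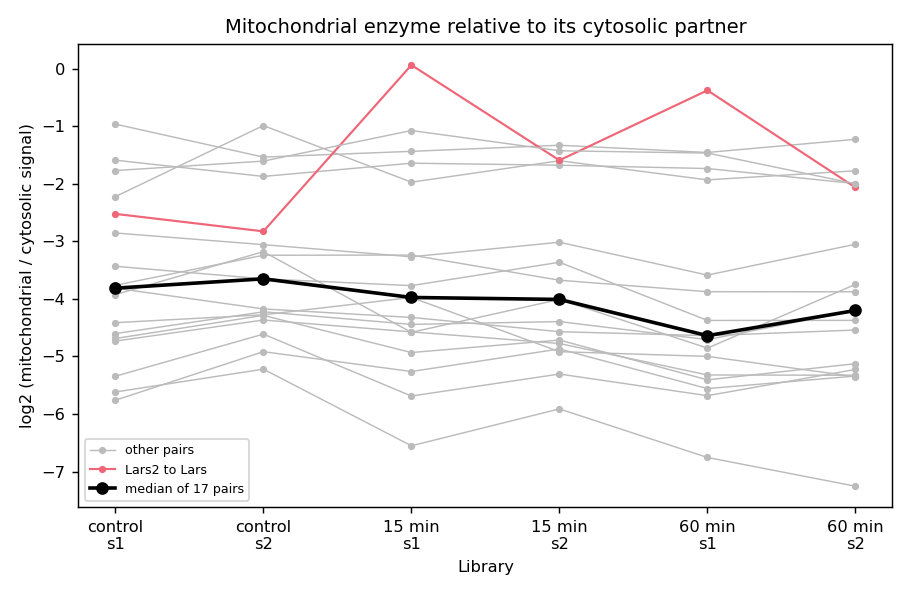
Log2 ratio of the signal of each mitochondrial synthetase to that of its cytosolic partner in each of the 6 libraries, with lines joining the values of a pair as a guide. Grey lines are 16 pairs, the red line is Lars2 to Lars and the black line is the median of the 17 pairs. The median is lowest in the 2 libraries of 60 min, at -4.64 and -4.20, while Lars2 to Lars is highest in 15 min s1, at 0.07.

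The 20 other genes of tRNA charging and delivery were listed by role, and 0 passed limma's test in any comparison. Above control were 16 of 20 at 15 min (median 0.17) and 11 at 60 min (median 0.04), and 7 were higher at 60 than at 15 min. Of all genes tested, 40.1%, 37.3% and 50.8% were above 0 in these comparisons. For those with a mean of at least 20 the shares were 71.6%, 57.8% and 34.1%, with medians of 0.15, 0.06 and -0.09. Not all partners reached that mean. Elongation factor genes of the cytosol had the smallest p of the 20 at 60 min against control. Eef1g, a subunit of the exchange complex, was at 677 and 796 in the controls, 973 and 953 at 15 min and 1088 and 1075 at 60 min, a log2 change of 0.56 ± 0.20 (SE, limma adjusted p = 0.541). Eef1a1, which carries charged tRNA to the ribosome, was at 4275 and 3787, 6422 and 5288, and 7048 and 5730, a change of 0.66 ± 0.26 (limma adjusted p = 0.582). In both genes every heated library lay above both controls. Of tested genes with a mean of at least 20, 31.7% at 15 min and 22.9% at 60 min were higher without overlap.

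Partners in the mitochondrion gave other values. Tufm, which delivers charged tRNA in the mitochondrion, was at 100.2 and 69.2, 102 and 75.0, and 89.9 and 83.2, with overlapping groups. Mtfmt, which formylates the mitochondrial initiator tRNA, was at 9.94 and 9.44, 8.78 and 10.7, and 7.53 and 6.62, lowest in both 60 min libraries, with a log2 change from 15 to 60 min of -0.41 ± 0.21 (SE, limma adjusted p = 0.889). Qrsl1 and Gatc, subunits of the amidotransferase that makes mitochondrial glutaminyl-tRNA in place of a glutamine synthetase, had their lowest values at 60 min, 10.3 and 9.71 for Qrsl1 and 21.6 and 18.0 for Gatc, against 10.8 to 13.9 and 23.1 to 28.7 in the other libraries, whereas their partner subunit Gatb overlapped, with 7.15 and 7.39 against 6.41 to 8.798. Pstk, a kinase of the selenocysteine pathway, was not listed among the mitochondrial partners. It was at 16.3 in both 15 min libraries and at 11.7 and 9.402 at 60 min, with 18.3 and 11.6 in the controls. Its log2 change from 15 to 60 min was -0.59 ± 0.26 (limma adjusted p = 0.832).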

How the data were processed

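RNA was measured in 6 libraries of 100 bp single-end reads. The submitters' processing notes name kallisto, sleuth and GRCm39, without versions or annotation. The authors deposited a normalised signal named TPM, but column totals ran from 892768 to 1056383, so a further factor per library is present. Columns gave the group but not which sample, and no column was unused. Depth is unknown, so no interval from counts was computed.

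Ensembl IDs were named through a GENCODE table, which held 52028 of the 55538 genes. Members, lists, tests and alternatives were chosen with earlier results of these data known. The main model, limma 3.58.1 run in R 4.3.3, took log2(signal + 1) of the 21954 genes averaging 1 or more, with a mean-variance trend. It used all 6 libraries and no term but group, leaving 3 residual degrees of freedom. Two-sided p-values were adjusted by Benjamini-Hochberg across every tested gene, with calls at 0.05, and the fit was tested on simulated data. With 2 against 2 libraries an exact permutation test cannot go below 0.333, so none was run. Values in every library are given for members with the 3 smallest p per comparison and compartment, the 2 highest and lowest levels, and Gars, Kars and Eprs. Partners named were those with the 2 smallest p per comparison. Members outside that rule, Aimp1, Aimp2, Ddit3, Tufm, Qrsl1, Gatb, Gatc and the genes resembling or overlapping a member were chosen after their values were seen. Transcripts were compared with blastn 2.17.0 at an e-value of 1e-10. A member and a promoter match are counted but not reported by name or sequence here. Settings tried are listed in the closing section.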

Additional observations from a re-analysis of the deposited data

How the results depend on the processing

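No synthetase passed an adjusted p of 0.05 or 0.1 under any setting run. None of the 18 single-gene changes followed across settings turned direction in 269 recomputed values. Those 18 were picked for the smallest p in these data. Several settings, such as the replicate block and the fit without the trend, return the same change by design. The 269 values are therefore not separate checks. Only 2 libraries per group, unknown depth and the scale of control s1 limit these values. Scaling by median of ratios, taken over genes above 0 in every library, moved the median of all genes to 0.17 at 15 min, 0.04 at 60 min and -0.12 between the times. It gave 7, 28 and 34 called genes, cytosolic medians of 0.546, 0.44 and -0.176 and mitochondrial medians of 0.341, 0.033 and -0.419, which is 0.17 above, 0.01 below and 0.30 below the median of all genes, and 17 of 17 mitochondrial genes were then lower at 60 than at 15 min. The count of called genes at 60 min against control (9) was 5 with a pseudocount of 5, 5 with no filter and 2 in a fit of the 4 libraries compared. Between 60 and 15 min (4) it was 10 without the trend and 0 in the fit of 4, and the mitochondrial median was -0.19 with a pseudocount of 5. Leaving out each library in turn gave 0 to 216, 0 to 146 and 0 to 2 called genes in the 3 comparisons, cytosolic medians of 0.17 to 0.23, 0.085 to 0.30 and -0.14 to 0.10, and mitochondrial medians of -0.02 to 0.07, -0.303 to -0.069 and -0.389 to -0.205. The cytosolic median between the times thus changed sign. Causes were not tested. With a replicate block by the column suffix 0 synthetases passed, with a smallest adjusted p of 0.252 at 60 min. The suffixes are not shown to pair libraries: the difference s1 minus s2 correlated across genes by 0.08 between control and 15 min, 0.10 between control and 60 min and 0.22 between the heated groups. With only genes averaging 5 or more, the median of all genes at 15 min was 0.068, against -0.098 in the main model. The gap of the cytosolic median to it went from 0.304 to 0.138, and that of the mitochondrial median from 0.12 to -0.012. No other alternative moved the median of either set or a count of called genes beyond the spread between libraries or 1.5 times.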
